A study of Mus musculus and Rattus norvegicus with 26 samples.

Results

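The pore-forming subunits of the voltage-gated calcium channels were examined in 6 lists of intronic contigs, stretches of intron in which sequenced reads lie close together. The members were all contigs whose gene symbol was one of the 10 genes Cacna1a to Cacna1i and Cacna1s. They numbered 135 of 112345 contigs, and each of the 10 genes was in at least 1 list, among 13695 gene symbols in all. The mouse neuronal lists pool 3 libraries of dendrites and 3 of somas from hippocampal neurons of embryonic day 18 C57BL/6 mice. The rat lists pool 2 libraries of dendrites and 3 of somas from Sprague-Dawley rats of the same labelled age. Neurons of both species were taken at that age and then grown in primary culture before collection, so they were not fresh embryonic cells. The BAT list pools, by the labels, 6 libraries of single brown adipose cells from CD-1 mice of embryonic day 17.5. The cardiomyocyte list pools, by the labels, 9 libraries of single ventricular cells from embryonic day 14.5 C57BL/6 mice that carry 1 copy of the Fucci reporter mAG-hGem under a CMV promoter. For both of these whole-cell groups the study gives a smaller number of cells than the labels, and which libraries a list holds is not stated in it. All 26 labelled libraries went through 3 rounds of aRNA amplification, a linear copying of RNA from a poly(T) primer with a T7 promoter. Dendrites were collected by hand and could include axons, whereas somas, BAT cells and cardiomyocytes were whole cells with their nucleus. In the study each dendrite library was a pool of many dissected dendrites, and each soma library was a single cell.

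Voltage-gated calcium channels open when the membrane depolarises and let calcium into the cell. The pore subunit carries the voltage sensors and the ion path, and auxiliary subunits set its traffic to the membrane and its gating. The CaV1 genes (Cacna1s, Cacna1c, Cacna1d, Cacna1f) encode L-type channels, known for excitation-contraction coupling in muscle and for signalling to the nucleus in neurons. The CaV2 genes (Cacna1a, Cacna1b, Cacna1e) encode the P/Q-, N- and R-type channels of nerve terminals and dendrites, and the CaV3 genes (Cacna1g, Cacna1h, Cacna1i) encode T-type channels that open near the resting potential.

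The values are raw read counts per intron, pooled over the libraries of a condition. The sum of these counts over a list, called listed reads below, ranged from 1007530 in the rat dendrite list to 17858440 in the BAT list. Levels are given as RPM, reads per 1000000 listed reads. Under a limit on contig length, used below, the listed reads are the sum over the introns kept in the list. A level can then rise while its reads fall. Since each condition is a single pooled list, the libraries cannot be separated and the comparisons have no replicate check. The 95% intervals are exact Poisson intervals for reads and Wilson intervals for shares, and both cover counting error only. In the BAT list 8 of 9 brown adipocyte markers were listed, with 147692 reads, against 82.0% of all genes in a mouse list. In the cardiomyocyte list 7 of 10 cardiomyocyte markers were listed, with 196380 reads, against 49.8% of all genes. Of 10 neuron markers 6 were listed in mouse dendrites (69.0% of all genes) and 7 in mouse somas (47.3%). In rat 3 were listed in dendrites (78.5%) and 4 in somas (59.4%). The BAT list also held 6 neuron markers and the cardiomyocyte list 4. Map2 and Syn1 were in none of the 6 lists. In pooled lists of this kind fewer cells of a type and less RNA per cell cannot be told apart.

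The intron stretches on which the results turn lie on NCBIM37 (mm9) and are written on the gene's strand, 5′ to 3′. The first sequence is the 5′ end of the Cacna1d contig that held the most pore subunit reads in mouse dendrites, at chr14:30909034-30909333 on the minus strand. The capitals mark the 225 nt that the soma list also held.

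Cacna1d intron 28: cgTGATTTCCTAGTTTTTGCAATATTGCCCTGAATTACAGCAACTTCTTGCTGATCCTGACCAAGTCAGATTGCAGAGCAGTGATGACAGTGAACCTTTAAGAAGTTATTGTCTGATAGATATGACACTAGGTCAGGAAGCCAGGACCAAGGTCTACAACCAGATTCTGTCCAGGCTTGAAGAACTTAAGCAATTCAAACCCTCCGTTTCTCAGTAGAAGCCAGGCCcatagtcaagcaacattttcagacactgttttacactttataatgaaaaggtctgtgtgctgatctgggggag

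The next are, for each mouse list, the contig of at most 300 nt with the most reads among introns with a single contig. In dendrites this was Cacna1f intron 29 (chrX:7203354-7203575, plus strand, 567 reads), where the capitals mark the 170 nt that the BAT list also held. In somas it was Cacna1b intron 4 (chr2:24589123-24589390, minus strand, 22 reads). In BAT cells it was Cacna1c intron 9 (chr6:118683656-118683832, minus strand, 83 reads), and in cardiomyocytes Cacna1c intron 23 (chr6:118611439-118611705, minus strand, 184 reads). The capitals in these last 2 mark runs of 5 or more A, and the soma contig has no such run.

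Cacna1f intron 29, dendrites: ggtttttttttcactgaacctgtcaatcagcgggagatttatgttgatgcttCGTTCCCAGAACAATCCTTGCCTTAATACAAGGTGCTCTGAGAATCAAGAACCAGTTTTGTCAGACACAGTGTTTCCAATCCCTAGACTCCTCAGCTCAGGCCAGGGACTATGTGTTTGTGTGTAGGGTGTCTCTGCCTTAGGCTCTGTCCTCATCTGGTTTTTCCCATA

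Cacna1b intron 4, somas: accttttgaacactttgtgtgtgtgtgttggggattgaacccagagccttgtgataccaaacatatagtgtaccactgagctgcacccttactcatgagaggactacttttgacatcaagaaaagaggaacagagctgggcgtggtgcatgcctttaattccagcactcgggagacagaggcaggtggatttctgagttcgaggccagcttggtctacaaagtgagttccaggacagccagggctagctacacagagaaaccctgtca

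Cacna1c intron 9, BAT cells: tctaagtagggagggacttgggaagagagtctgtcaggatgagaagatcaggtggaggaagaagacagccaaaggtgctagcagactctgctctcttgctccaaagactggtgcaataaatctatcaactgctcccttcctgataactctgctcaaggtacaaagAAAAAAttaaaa

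Cacna1c intron 23, cardiomyocytes: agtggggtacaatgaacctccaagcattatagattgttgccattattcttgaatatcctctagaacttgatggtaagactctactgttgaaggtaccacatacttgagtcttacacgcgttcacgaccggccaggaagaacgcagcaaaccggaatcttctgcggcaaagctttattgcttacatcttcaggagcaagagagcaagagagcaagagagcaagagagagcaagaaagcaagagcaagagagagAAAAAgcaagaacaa

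Intron 30 of Cacna1f (chrX:7203688-7203955, plus strand) is shown whole because the dendrite contig covered 258 of its 268 nt. The capitals mark the first 2 and the last 2 bases of the intron.

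Cacna1f intron 30: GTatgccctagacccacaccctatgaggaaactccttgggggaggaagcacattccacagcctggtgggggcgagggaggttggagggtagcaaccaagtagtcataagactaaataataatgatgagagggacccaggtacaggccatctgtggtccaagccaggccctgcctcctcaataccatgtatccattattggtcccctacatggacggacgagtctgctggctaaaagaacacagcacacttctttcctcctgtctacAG

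Of the 10 pore subunits 8 were listed in mouse dendrites, 5 in mouse somas, 9 in BAT cells, 2 in cardiomyocytes and 6 in each rat list. Among all genes in at least 1 list of the species, 69.0% were in the mouse dendrite list, 47.3% in the mouse soma list, 82.0% in the BAT list, 49.8% in the cardiomyocyte list, 78.5% in the rat dendrite list and 59.4% in the rat soma list. The pore subunit genes have many introns, and genes with 30 or more annotated introns were listed more often, at 90.3% in dendrites, 71.2% in somas, 95.1% in BAT cells and 67.6% in cardiomyocytes. Of the 9 pore subunits in a mouse list, the 8 in dendrites and the 9 in BAT cells were near the shares of long genes, and the 5 in somas and 2 in cardiomyocytes were below them. Both genes listed in cardiomyocytes encode L-type channels.

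**Figure D1:**
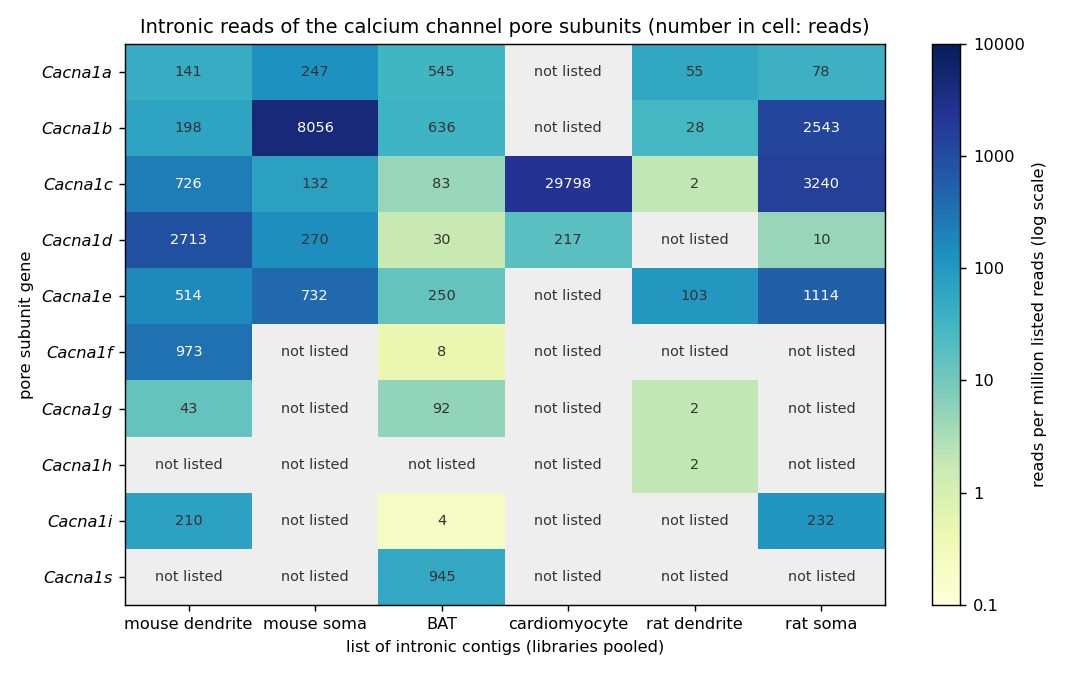
Intronic reads of the 10 pore subunits (rows) in the 6 lists (columns), with RPM as the colour on a log scale and the read count in each cell. Cacna1b stands out in both soma lists, Cacna1c in cardiomyocytes and rat somas, and Cacna1d in mouse dendrites, whereas Cacna1h was listed in rat dendrites alone.

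The summed level of the pore subunits was 5086 RPM in mouse somas (9437 reads, interval of the reads 9248 to 9629) and 1788 in mouse dendrites (5518 reads, interval 5373 to 5666). It was 2460 in cardiomyocytes (30015 reads) and 145 in BAT cells (2593 reads). In rat it was 3446 in somas (7217 reads) and 191 in dendrites (192 reads). A few introns carried most of these reads. The leading intron held 49.2% of the pore subunit reads in mouse dendrites (Cacna1d intron 28), 69.3% in mouse somas (Cacna1b intron 26), 24.9% in BAT cells (Cacna1s intron 6), 60.3% in cardiomyocytes (Cacna1c intron 10), 47.4% in rat dendrites (Cacna1e intron 31) and 29.3% in rat somas (Cacna1c intron 9).

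The subfamilies shared out differently between lists, and these shares depended on contig length. With all contigs the CaV2 genes held 95.7% of the pore subunit reads in mouse somas and 96.9% in rat dendrites, 55.2% in BAT cells, 51.8% in rat somas and 15.5% in mouse dendrites. The CaV1 genes held all of them in cardiomyocytes and 79.96% in mouse dendrites, but 4.26% in mouse somas. The CaV3 genes held at most 4.58%, in mouse dendrites. An alternative added after seeing the data left contigs over 400 nt out of whole-cell lists. The order then turned in mouse somas, where CaV1 held 91.1% and CaV2 8.92% of 437 reads. An intron kept its whole count where at least 1 of its contigs passed. Of the 437 reads, 258 were of Cacna1d intron 39 and 128 of Cacna1c intron 5, which each also held a contig over the limit. CaV2 then held 82.3% in BAT cells and 95.3% of 85 reads in rat somas, and CaV1 still held all reads in cardiomyocytes.

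Among the CaV2 genes, Cacna1b encodes the N-type channel that triggers transmitter release at many synapses. It had 8056 reads in mouse somas (interval 7881 to 8234), which placed it 24th of 5895 listed genes, against 198 reads in mouse dendrites, 636 in BAT cells, 28 in rat dendrites and 2543 in rat somas. Both soma lists were thus high and both dendrite lists low with all contigs. When contigs over 400 nt were left out of whole-cell lists, a limit taken up below, 28 reads were left in mouse somas and 9 in rat somas, and the ratio of dendrites to somas was 2.03 in mouse and 1.92 in rat. With that limit in dendrites too the ratios were 0.578 and 4.94. In mouse somas intron 26 alone held 6539 reads in a single contig of 709 nt that starts 87 nt after the 5′ splice site, and introns 31 and 15 held 1124 and 365 reads. In rat somas the leading intron of Cacna1b was intron 21 with 1696 reads, followed by intron 15 with 838.

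Cacna1e encodes the R-type channel found in dendrites and spines. It had 514 reads in mouse dendrites, 732 in mouse somas, 250 in BAT cells, 103 in rat dendrites and 1114 in rat somas. Nearly all reads of the mouse somas, 730 of 732, lay in intron 32, which was also the leading intron in mouse dendrites with 278 reads. In rat dendrites intron 31 led with 91 reads and in rat somas intron 7 with 1001. Without contigs over 400 nt 2 reads were left in each soma list. The BAT reads of Cacna1e were spread over 4 introns, 187 of them in intron 3.

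Cacna1a encodes the P/Q-type channel of nerve terminals. With all contigs its levels ranged from 30.5 RPM in BAT cells (545 reads) to 133 in mouse somas (247 reads), with 45.7 in mouse dendrites (141 reads), 54.6 in rat dendrites (55 reads) and 37.2 in rat somas (78 reads). Without contigs over 400 nt in whole-cell lists mouse somas went from the highest to the lowest of these levels, at 10.1 RPM (9 reads), and the levels were 62.8 in BAT cells (483 reads) and 113 in rat somas (70 reads). The leading intron differed in every list: intron 21 in mouse dendrites (131 reads), intron 19 in mouse somas (232 reads), intron 6 in BAT cells (473 reads), intron 37 in rat dendrites (42 reads) and intron 10 in rat somas (34 reads).

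Among the CaV1 genes, Cacna1c encodes the L-type channel of the heart, which carries the calcium current of the cardiac action potential and is also the main L-type channel of the brain. It was the one pore subunit in all 6 lists. It had 29798 reads in cardiomyocytes (interval 29461 to 30138), 726 in mouse dendrites, 132 in mouse somas, 83 in BAT cells, 2 in rat dendrites and 3240 in rat somas. Without contigs over 400 nt it kept 4474 reads in cardiomyocytes and 2 in rat somas. The cardiomyocyte reads were 99.3% of all pore subunit reads of that list and placed Cacna1c 48th of 6205 listed genes. They lay in 10 introns, of which intron 10 led with 18104 reads in a single contig of 2793 nt, followed by intron 6 with 4194, intron 5 with 3265 and intron 13 with 2206. The leading introns elsewhere were intron 23 in mouse dendrites (456 reads), intron 5 in mouse somas (128 reads), intron 9 in BAT cells (83 reads) and in rat somas (2118 reads), and intron 34 in rat dendrites (2 reads).

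Cacna1d encodes the L-type channel that opens at more negative voltages and is known from pacemaker cells and hair cells. It had 2713 reads in mouse dendrites (interval 2612 to 2817), 270 in mouse somas, 30 in BAT cells, 217 in cardiomyocytes and 10 in rat somas, and was not listed in rat dendrites. All reads of the mouse dendrites came from the contig of 541 nt in intron 28 shown above, which lies 178 nt before the 3′ splice site. In mouse somas intron 39 led with 258 reads, in BAT cells intron 39 with 30, in cardiomyocytes intron 16 with 131 and in rat somas intron 2 with 8. The contigs of introns 14 and 16 in cardiomyocytes lay 0 and 11 nt before the 3′ splice site.

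Cacna1f encodes the L-type channel of photoreceptor synapses. It had 973 reads in mouse dendrites (interval 913 to 1036) and 8 in BAT cells, and was listed neither in mouse somas nor in cardiomyocytes or rat. The dendrite reads lay in 4 introns, with 567 in intron 29, 274 in intron 8, 116 in intron 31 and 16 in intron 30. The gene is compact, with 22.02 kb of intron, and 2 of its contigs covered the most of their intron among the 98 that could be placed in the annotation, 96.3% of intron 30 and 57.1% of intron 8, against a median of 4.50%. The contig of intron 29 overlaps an exon of an annotated Cacna1f transcript of the retained intron type, and that of intron 31 an exon of another protein-coding Cacna1f transcript, so these reads may belong to such exons.

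Cacna1s encodes the L-type channel of skeletal muscle. It was listed in BAT cells alone, with 945 reads (interval 886 to 1007) in 5 introns, and was the pore subunit with the most reads there with all contigs. With contigs over 400 nt left out 45 reads remained, below Cacna1a (483), Cacna1e (197), Cacna1b (113) and Cacna1c (83). Intron 6 held 646 of them, intron 9 held 163, intron 10 held 91, intron 5 held 43 and intron 2 held 2. Markers of skeletal muscle were also highest in the BAT list, where 4 of 6 were listed at 303 RPM, led by Myh8 with 3161 reads, against 0.328 to 77.4 in the other lists. Chrna1 and Myod1 were not listed in BAT cells. The part of such cells in the result was not tested.

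The CaV3 genes had few reads. Cacna1i had 210 reads in mouse dendrites (intron 29), 4 in BAT cells (intron 5) and 232 in rat somas (intron 4). Cacna1g had 43 in mouse dendrites (intron 22), 92 in BAT cells (intron 16) and 2 in rat dendrites (intron 15). Cacna1h was represented by a single contig with 2 reads in intron 9, in rat dendrites. Each listing of a CaV3 gene thus rested on 1 intron. With 2 reads the interval runs from 0.242 to 7.22 reads, so these levels are hardly determined.

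Levels of genes were also set beside their length of intron, which was known for mouse. Placed contigs covered a median of 4.50% of their intron, so this measure also depends on how compact a gene is. In mouse dendrites Cacna1f was highest, at 14.3 RPM per kb of annotated intron, followed by Cacna1d at 1.99, Cacna1i at 0.672 and Cacna1e at 0.519. Next came Cacna1b at 0.429, Cacna1c at 0.395, Cacna1g at 0.243 and Cacna1a at 0.211. The intervals of Cacna1e and Cacna1b overlapped, as did those of Cacna1b and Cacna1c and of Cacna1g and Cacna1a. In mouse somas the order was Cacna1b at 29.0, Cacna1e at 1.23, Cacna1a at 0.614, Cacna1d at 0.329 and Cacna1c at 0.119. No neighbours in this order had overlapping intervals. In BAT cells Cacna1s led at 0.872, followed by Cacna1b at 0.238, Cacna1a at 0.141, Cacna1g at 0.0899, Cacna1e at 0.0437, Cacna1f at 0.0203, Cacna1c at 0.00780, Cacna1d at 0.00380 and Cacna1i at 0.00221. There the intervals of Cacna1f overlapped those of Cacna1e and Cacna1c, and that of Cacna1i overlapped that of Cacna1d. In cardiomyocytes Cacna1c at 4.10 lay above Cacna1d at 0.0402. Without contigs over 400 nt, and with levels taken over the reads of the kept introns, the order in whole-cell lists was another. Cacna1d kept all its 270 soma reads, of which 258 were of intron 39, where 1 of 2 contigs was over the limit. In somas Cacna1d led at 0.687, followed by Cacna1c at 0.242, Cacna1b at 0.211, Cacna1a at 0.0467 and Cacna1e at 0.00703, with overlapping intervals of Cacna1c and Cacna1b and of Cacna1a and Cacna1e. In BAT cells Cacna1a led at 0.289, followed by Cacna1b at 0.0983, Cacna1s at 0.0964 and Cacna1e at 0.0799, whose intervals overlapped, and in cardiomyocytes Cacna1c (1.61) stayed above Cacna1d (0.105). With all contigs the short gene Cacna1f in dendrites exceeded Cacna1d, although Cacna1d had more reads.

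**Figure D2:**
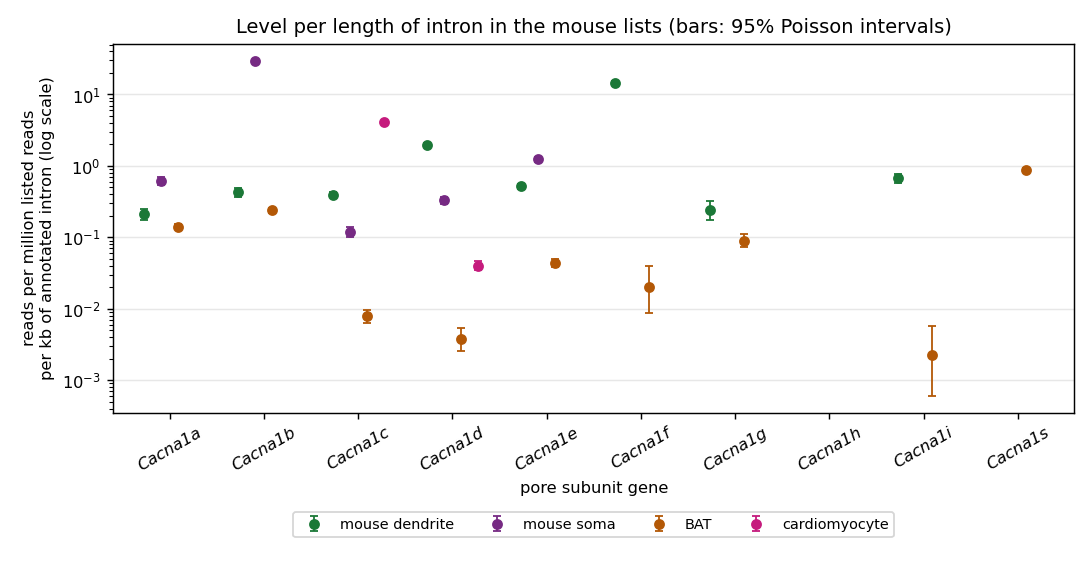
Level of each pore subunit in the 4 mouse lists, as RPM per kb of annotated intron on a log axis. All listed contigs are used. Points are pooled lists, bars are 95% Poisson intervals of the reads, and a gene without a point was not listed. Cacna1b in somas (29.0) and Cacna1f in dendrites (14.3) were highest.

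The comparison of dendrites with somas asks which intron sequences are found away from the nucleus. It sets pools of many dendrites against 3 single somas in each species. In mouse, 5 pore subunits were in both lists and 3 (Cacna1f, Cacna1g and Cacna1i) in the dendrite list alone, as were 39.6% of all genes in either list. Of the 5, Cacna1d was 6.04 times higher in dendrites (879 against 146 RPM) and Cacna1b lower, at a ratio of dendrites to somas of 0.0148 (64.1 against 4342). Of all genes in both lists 33.2% were 4-fold or more higher in dendrites and 24.9% in somas, so 1 of 5 in each direction is close to the background. Cacna1c had a ratio of 3.31, Cacna1e of 0.422 and Cacna1a of 0.343, all within 4-fold. The summed level was 2.84 times higher in somas. Astrocyte markers were listed at 966 RPM in dendrites (4 of 5 genes) and 142 in somas (3 of 5). The dendrite reads of these were mostly of Aldh1l1 (2826 of 2983), whereas Slc1a2 was not listed in dendrites and had 254 reads in somas. Cardiomyocyte markers came to 564 RPM in dendrites (4 of 10 genes) and 4.31 in somas (1 of 10), brown adipocyte markers to 225 (6 of 9) and 1.08 (1 of 9), and skeletal muscle markers to 77.4 (3 of 6) and 6.47 (2 of 6). Markers of neurons (1289 and 3776 RPM), endothelium (196 and 729), blood cells (70.3 and 130) and fibroblasts (36.6 and 55.0) were lower in dendrites, and those of oligodendrocytes stood at 1.94 and 1.08. Their part in these ratios was not tested.

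In rat, Cacna1b, Cacna1c and Cacna1e were 4-fold or more higher in somas, that is 3 of 4 genes in both lists against 24.6% of all genes, and none was in the other direction (35.7%). The ratios of dendrites to somas were 0.00128 for Cacna1c, 0.0229 for Cacna1b and 0.192 for Cacna1e, and that of Cacna1a was 1.47. The Cacna1c ratio rests on 2 dendrite reads. Cacna1b was thus higher in somas in both species, whereas Cacna1c was on different sides of 1. Of the 8 pore subunits in a rat list, 2 (Cacna1d and Cacna1i) were listed in somas alone, as were 21.5% of all genes, and 2 (Cacna1g and Cacna1h) in dendrites alone (40.6%). Fibroblast markers stood at 319 RPM in rat dendrites and 0.955 in rat somas, oligodendrocyte markers at 138 and 27.7, brown adipocyte markers at 94.3 and 7.16, skeletal muscle markers at 74.4 and 8.59, cardiomyocyte markers at 77.4 and 60.6, neuron markers at 1596 and 6490 and astrocyte markers at 68.5 and 120. Endothelial markers were listed in dendrites alone (23.8 RPM) and blood cell markers in somas alone (59.7). Their part in these ratios was not tested.

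These directions depended on contig length. The study kept contigs of at most 400 nt in whole-cell lists, to reduce unspliced nuclear RNA, while all contigs are used here. Applying it to the ratios was chosen after seeing the data, and an intron kept its whole count when at least 1 of its contigs was within the limit. Among the pore subunits 10 of 20 mouse soma contigs and 12 of 23 rat soma contigs exceeded that limit, against 32.7% and 37.9% of all contigs of those lists. With the limit in whole-cell lists the summed level was 492 RPM in mouse somas (437 reads) and 137 in rat somas (85 reads). Levels and ratios under the limit are taken over the reads of the kept introns. The direction then reversed to 3.63 times higher in mouse dendrites and 1.39 times higher in rat dendrites. The leading soma contigs were among those removed, since Cacna1b intron 26 (709 nt) and Cacna1c intron 9 in rat (1797 nt) are longer than the limit. With the limit in the dendrite lists too, which removed Cacna1d and Cacna1i from mouse dendrites, the summed level was 1.34 times higher in mouse dendrites and 1.10 times higher in rat dendrites. With it in whole-cell lists alone, Cacna1b had a ratio of 2.03 and Cacna1d of 2.89 in mouse, both within 4-fold, and Cacna1a (4.51) and Cacna1e (73.9) were higher in dendrites, 2 of 5 against 35.5% of all genes, and none was higher in somas (25.2%). In rat Cacna1e was higher in dendrites (31.7), which is 1 of 4 against 30.4%, and none was higher in somas (23.5%). The ratios of Cacna1a (0.484), Cacna1c (0.616) and Cacna1b (1.92) were within 4-fold. That of Cacna1a turned although its soma reads went only from 78 to 70, because levels are taken over the kept reads of the list. With the limit in all lists, Cacna1c was higher in mouse somas, at a ratio of 0.0158 (1 of 4 against 25.1%), and Cacna1a (7.92) and Cacna1e (59.7) in mouse dendrites (2 of 4 against 33.8%), with Cacna1b at 0.578. In rat Cacna1b (4.94) and Cacna1e (9.53) were then higher in dendrites (2 of 4 against 32.8%) and none in somas (20.6%), with Cacna1a at 0.295 and Cacna1c at 1.59.

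**Figure D3:**
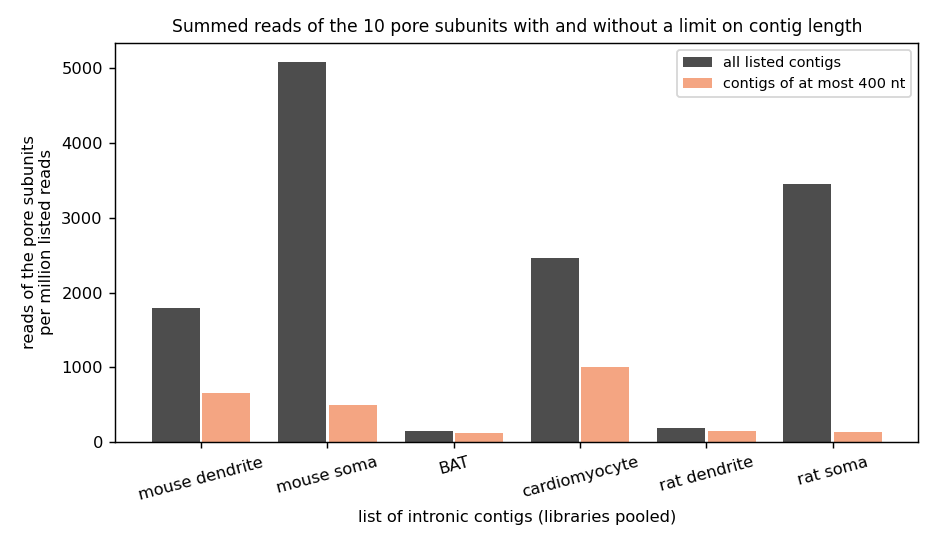
Summed level of the 10 pore subunits, as RPM, in each of the 6 lists, with all listed contigs (dark bars) and with contigs of at most 400 nt (light bars). Dark bars are taken over all listed reads and light bars over the reads of the kept introns, so their denominators differ. The level went from 5086 to 492 in mouse somas, from 3446 to 137 in rat somas and from 1788 to 658 in mouse dendrites. It went from 2460 to 1005 in cardiomyocytes, 145 to 125 in BAT cells and 191 to 151 in rat dendrites. The pore subunit reads fell from 9437 to 437 in mouse somas and from 7217 to 85 in rat somas. They fell from 30015 to 4691 in cardiomyocytes and from 2593 to 963 in BAT cells, where the level changed little.

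Against BAT cells, all 5 pore subunits listed in mouse somas were 4-fold or more higher in somas, compared with 33.7% of all genes in both lists. The ratios were 122 for Cacna1b, 86.6 for Cacna1d, 28.2 for Cacna1e, 15.3 for Cacna1c and 4.36 for Cacna1a, and none was higher in BAT cells (26.7%). Neuron markers stood at 3776 RPM in somas and 597 in BAT cells, cardiomyocyte markers at 4.31 and 1846 (Nkx2-5 alone had 26804 reads in BAT cells), skeletal muscle markers at 6.47 and 303, brown adipocyte markers at 1.08 and 8270, astrocyte markers at 142 and 45.4 and endothelial markers at 729 and 183. Their part in the ratios was not tested. The summed level was 35.0 times higher in somas, and 3.93 times with contigs of at most 400 nt. Another 4 genes (Cacna1f, Cacna1g, Cacna1i and Cacna1s) were in the BAT list alone, as were 46.6% of all genes, and none in the soma list alone (7.42%). With contigs of at most 400 nt, Cacna1c (13.4) and Cacna1d (78.0) stayed higher in somas, 2 of 5 against 36.7%, Cacna1b had a ratio of 2.15, and Cacna1a (0.161) and Cacna1e (0.0880) were higher in BAT cells, 2 of 5 against 24.5%.

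Cardiomyocytes shared Cacna1c and Cacna1d with both other whole-cell lists of mouse. Cacna1c stood at 2442 RPM in cardiomyocytes, 71.1 in mouse somas and 4.65 in BAT cells, and was past 4-fold in both comparisons, for which the shares of all genes higher in cardiomyocytes were 26.2% and 28.3%. Cacna1d was 8.18 times higher in somas than in cardiomyocytes (37.0% of all genes past 4-fold in that direction) and higher in cardiomyocytes than in BAT cells, at a ratio of BAT cells to cardiomyocytes of 0.0945. These 4 directions were the same with contigs of at most 400 nt, where the ratio of mouse somas to cardiomyocytes was 0.150 for Cacna1c and 6.54 for Cacna1d. Cacna1a, Cacna1b and Cacna1e were listed in mouse somas and not in cardiomyocytes, 3 of 5 genes against 26.1% of all genes in either list, and none the other way (29.8%). Against BAT cells 7 of 9 were in the BAT list alone (43.5%) and none in the cardiomyocyte list alone (6.95%). The summed level was 2.07 times higher in somas than in cardiomyocytes, but with contigs of at most 400 nt this ratio was 0.490. Neuron markers in the cardiomyocyte list came to 412 RPM, cardiomyocyte markers to 16095, brown adipocyte markers to 328 (4 of 9 genes, led by Cidea with 2600 reads), endothelial markers to 288 and skeletal muscle markers to 0.328, against the values for somas and BAT cells given above. Markers of astrocytes, oligodendrocytes, fibroblasts and blood cells were not listed there. Their part in these ratios was not tested.

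How many introns of a gene held a contig was compared with the annotation of NCBIM37. The 9 pore subunits in a mouse list have 396 annotated introns, of which 55 held a contig in at least 1 mouse list, or 13.9% (interval 10.8 to 17.6). In all 657 listed genes with 30 or more annotated introns the share was 24.5%. At the rates of these genes in each class of intron length, 24.2% would be listed. The pore subunit share was 6.06% against 10.3% in dendrites, 4.29% against 5.07% in somas, 5.81% against 14.6% in BAT cells and 3.03% against 6.01% in cardiomyocytes. Over the introns of all annotated listed genes, whatever their number, the shares were 12.9%, 6.99%, 19.9% and 8.64%. In each class under 10 kb the pore subunit share was below that of all such genes, with 4.28% against 9.59% under 1 kb, 14.2% against 30.3% at 1 to 3 kb and 29.2% against 47.2% at 3 to 10 kb. Of introns of 10 to 30 kb 11 of 22 were listed (50.0%) against 47.3%. Introns of 1 gene share their source, so the intervals are too narrow as errors of a gene family. Over all 10 genes, with 430 annotated introns, the 55 listed introns had a median length of 4144 nt and the other 375 of 851 nt, and over the introns of all annotated listed genes these medians were 2621 and 1063 nt. Of 9 introns of 30 kb or more a single one, intron 3 of Cacna1e (64510 nt), held contigs (11.1% against 27.2%). Cacna1c had contigs in 11 of 46 introns, Cacna1a in 10 of 47, Cacna1b in 9 of 46, Cacna1e in 7 of 46, Cacna1f in 5 of 47, Cacna1s in 5 of 45, Cacna1d in 4 of 46, Cacna1g in 2 of 37 and Cacna1i in 2 of 36, while none of the 34 introns of Cacna1h had any.

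**Figure D4:**
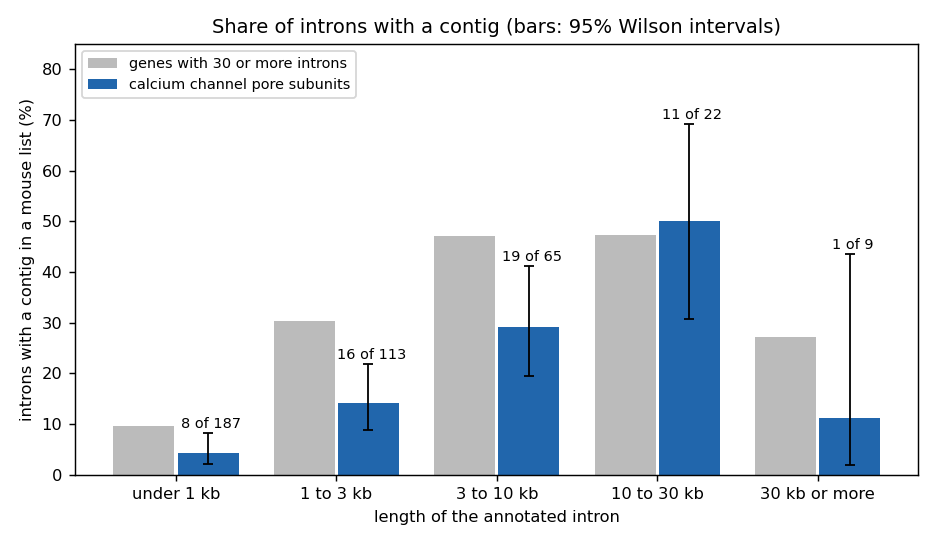
Share of annotated introns with a contig in at least 1 mouse list (y axis, percent) by intron length (x axis), for the 9 listed pore subunits (blue, with 95% Wilson intervals and counts) and for all 657 listed genes with 30 or more introns (grey). The pore subunits were below the other genes for introns under 10 kb and level with them at 10 to 30 kb.

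Of the 55 mouse introns 38 were in 1 list, 17 in 2 or more, 5 in 3 and 0 in all 4. Those in 3 lists were intron 6 of Cacna1b (3 reads in dendrites, 4 in somas, 10 in BAT cells), intron 9 of Cacna1c (52 in dendrites, 83 in BAT cells, 655 in cardiomyocytes), intron 23 of Cacna1c (456 in dendrites, 4 in somas, 184 in cardiomyocytes), intron 3 of Cacna1e (90 in dendrites, 2 in somas, 187 in BAT cells) and intron 32 of Cacna1e (278 in dendrites, 730 in somas, 6 in BAT cells). The other 12, in 2 lists each, were introns 6, 24 and 30 of Cacna1a, introns 3, 15, 20 and 31 of Cacna1b, introns 5 and 30 of Cacna1c, introns 28 and 39 of Cacna1d and intron 29 of Cacna1f. A high count in one list often met a low one in the other: intron 28 of Cacna1d had 2713 reads in dendrites and 12 in somas, and intron 23 of Cacna1c 456 and 4. The BAT contig numbered as intron 31 of Cacna1b overlaps a protein-coding exon of that gene and could not be placed in the annotated intron of that number.

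In rat 26 introns were listed and 4 of them in both lists, which is 4 of 10 dendrite introns (24.9% of all dendrite introns were in both) and 4 of 20 soma introns (34.8%), namely intron 3 of Cacna1a, intron 34 of Cacna1c and introns 3 and 31 of Cacna1e. For 11 introns the same number was listed in mouse and rat. They were introns 6 and 27 of Cacna1a, introns 3, 15 and 31 of Cacna1b, introns 5, 6, 9 and 10 of Cacna1c, intron 16 of Cacna1d and intron 3 of Cacna1e. Intron 15 of Cacna1b had 365 reads in mouse somas and 838 in rat somas, the one case with over 100 reads in the somas of both species. Cacna1c introns 5, 6, 9 and 10, all of them among the 10 cardiomyocyte introns, had 3, 537, 2118 and 580 reads in rat somas. Intron numbers were taken from the listed transcripts, whose exons can differ between species, and the rat sequence was not analysed here.

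**Figure D5:**
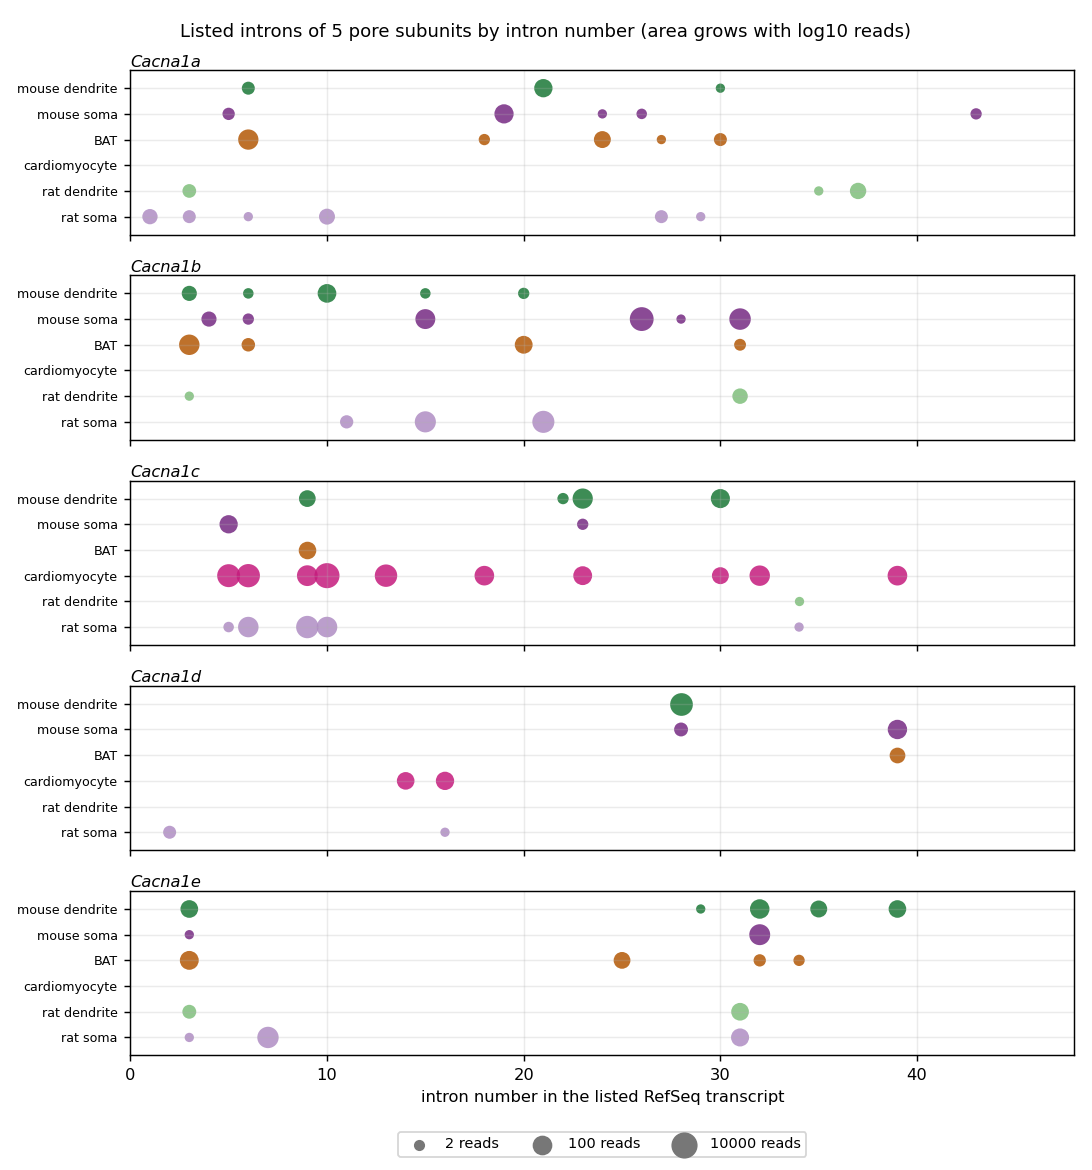
Listed introns of Cacna1a to Cacna1e by their number in the RefSeq transcript (x axis) in the 6 lists (rows), with the area of a dot growing with the log10 of the reads of the intron. Few columns hold dots of several mouse lists; those of Cacna1e intron 3 span dendrites, somas and BAT cells of mouse and both rat lists.

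Whether contigs of 2 lists lay at the same place of a shared intron differed between pairs of lists. Mouse dendrites and somas had overlapping contigs in all of their 6 shared introns except intron 3 of Cacna1e. Dendrites and BAT cells shared 9 introns but a single overlap. Of the 24 pore subunit introns in mouse dendrites 6 were also in mouse somas (25.9% of all dendrite introns), 9 in BAT cells (48.6%) and 3 in cardiomyocytes (24.0%). Of the 12 cardiomyocyte introns 1 was also in BAT cells, against 60.0% of all. Counted by position, 5 of 30 dendrite contigs overlapped a soma contig (11.9% of all), 1 a BAT contig (16.9%) and 0 a cardiomyocyte contig (8.36%). Of the 16 cardiomyocyte contigs 2 overlapped a soma contig (13.8%) and 0 a BAT contig, against 35.3% of all cardiomyocyte contigs. In rat 1 of 13 dendrite contigs overlapped a soma contig (15.1%).

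Where contigs did overlap, their ends lay 0 to 398 nt apart. In intron 23 of Cacna1c the dendrite contig of 592 nt and the soma contig of 586 nt shared 586 nt, although the intron had 456 reads in dendrites and 4 in somas. In intron 28 of Cacna1d the soma contig lay wholly inside the dendrite contig, and their 5′ ends were 2 nt and their 3′ ends 314 nt apart. In intron 32 of Cacna1e 560 nt were shared, with 5′ ends 103 nt and 3′ ends 22 nt apart. In intron 15 of Cacna1b 318 nt were shared, with 5′ ends 1 nt and 3′ ends 214 nt apart, and in intron 6 of Cacna1b 173 nt, with ends 57 and 37 nt apart. The contigs of Cacna1f intron 29 in dendrites and BAT cells ended at the same base, 1 nt short of the intron's end, and started 52 nt apart. The other overlaps of mouse were 2 in Cacna1c intron 5 between somas and cardiomyocytes (301 and 462 nt, with 5′ ends 398 and 176 nt apart) and 1 in Cacna1d intron 39 between somas and BAT cells (222 nt, with 5′ ends 159 nt apart). In rat the contigs of Cacna1e intron 31 in dendrites and somas shared 746 nt, with ends 1 and 58 nt apart.

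The poly(T) primer of the aRNA method can start on runs of A inside an intron, so runs of 10 or more A were searched on the gene's strand, within 300 nt after each contig. They followed 5 of 20 pore subunit contigs in mouse somas (interval 11.2% to 46.9%), against 18.6% of all contigs, and 0 of 30 in dendrites (upper bound 11.4%) against 8.11%. In BAT cells they followed 2 of 33 (7.36% of all contigs) and in cardiomyocytes 1 of 16 (9.53%). Counting the bases after the contig's end alone, so that a run the contig had already entered counts by its remainder, 10 or more A began within 2 nt of the end in 4 of these 5, which is 20.0% of the 20 contigs (interval 8.07 to 41.6) against 5.24% of all soma contigs. Such A bases began within 2 nt of the end of 0 of 30 contigs in dendrites (1.04% of all), 1 of 33 in BAT cells (1.06%) and 1 of 16 in cardiomyocytes (2.04%). The 4 of the somas were at Cacna1b intron 31, Cacna1c intron 5, Cacna1d intron 39 and Cacna1e intron 32. The study trimmed poly-A and poly-T from reads before alignment, and the part of this trimming in these ends was not tested.

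Among the overlapping contigs of 2 mouse lists, 4 runs of 10 or more A lay at or near a 3′ end. The stretches below show each run in capitals with the 50 nt before and the 50 nt after it. In each case the contig of 1 list stopped at the run and that of the other list went on into or past it. The parts of the primer and of the trimming of reads in these ends were not tested.

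Cacna1e intron 32, chr1:156284703-156284817, minus strand: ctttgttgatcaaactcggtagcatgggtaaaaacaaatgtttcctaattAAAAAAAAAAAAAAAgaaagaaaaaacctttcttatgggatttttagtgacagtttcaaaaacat

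Cacna1d intron 39, chr14:30875407-30875522, minus strand: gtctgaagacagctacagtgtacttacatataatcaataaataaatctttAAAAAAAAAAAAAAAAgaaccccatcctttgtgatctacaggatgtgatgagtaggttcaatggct

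Cacna1c intron 5, chr6:118715794-118715903, minus strand: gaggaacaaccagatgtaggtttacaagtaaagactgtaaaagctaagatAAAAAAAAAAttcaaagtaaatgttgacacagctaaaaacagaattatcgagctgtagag

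Cacna1c intron 5, chr6:118718420-118718538, minus strand: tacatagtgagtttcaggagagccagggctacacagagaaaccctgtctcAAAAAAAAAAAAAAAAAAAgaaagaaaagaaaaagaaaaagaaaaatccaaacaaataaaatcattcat

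In Cacna1e intron 32 the soma contig ended 5 nt into a run of 15 A, and the dendrite contig went 12 nt past it. In Cacna1d intron 39 the soma contig ended 1 nt before a run of 16 A and the BAT contig 1 nt before the end of that run. In Cacna1c intron 5 the cardiomyocyte contig ended 2 nt before a run of 10 A that lay inside the soma contig, and at the other site the soma contig ended 2 nt before a run of 19 A that lay inside the cardiomyocyte contig. These 4 sites, intron 28 of Cacna1d and the whole intron 30 of Cacna1f were chosen for display after their values were seen.

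The polyadenylation signal AATAAA, searched on both strands in the last 100 nt of contigs of at least that length, was in 2 of 30 pore subunit contigs of dendrites on the gene's strand (12.7% of all), 2 of 19 in somas (14.3%), 3 of 33 in BAT cells (10.6%) and 2 of 16 in cardiomyocytes (14.5%). The BAT contig of Cacna1c intron 9 printed above is one of the 3. Its reverse complement TTTATT was in 4, 0, 1 and 1 contigs (9.90%, 8.48%, 9.61% and 9.61% of all). Contigs overlapping an annotated exon of any gene were 2 of 30 in dendrites, 2 of 20 in somas, 3 of 33 in BAT cells and 0 of 16 in cardiomyocytes, against 5.04%, 9.59%, 7.51% and 11.4% of all contigs. The contig of Cacna1b intron 20 in BAT cells that overlaps the pseudogene Gm13459 on the opposite strand cannot be assigned, since the libraries do not keep the strand.

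Pore subunit contigs had a median length of 421.5 nt in mouse somas and 436 nt in rat somas, against 277 and 303 nt for all contigs of these lists. The medians were 260 nt in mouse dendrites (256 for all), 222 in BAT cells (273), 354.5 in cardiomyocytes (282) and 245 in rat dendrites (278). The read density of introns with a single contig had a median of 12.7 reads per 50 nt for pore subunits in mouse dendrites, against 2.78 for all introns, and 41.5 against 6.74 in cardiomyocytes. It was 1.03 against 2.66 in mouse somas, 1.76 against 3.38 in BAT cells, 0.437 against 2.32 in rat dendrites and 4.72 against 3.81 in rat somas. In mouse somas Cacna1b intron 26, at 461 reads per 50 nt, exceeded 99.8% of these introns, while 8 of the 17 pore subunit introns had under 10 reads (37.0% of all soma introns).

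The genes named as auxiliary subunits, some of which bind the pore subunits while several of the Cacng genes are better known as partners of AMPA receptors, were listed for 9 of 16 genes in mouse dendrites and somas, 11 in BAT cells, 5 in cardiomyocytes and 6 in each rat list. The auxiliary gene with the most reads was Cacnb2 in mouse dendrites (4138 reads) and in cardiomyocytes (122399 reads), Cacna2d1 in mouse somas (2134 reads) and BAT cells (11521 reads), Cacng2 in rat dendrites (1553 reads) and Cacng8 in rat somas (2046 reads). Summed, they stood at 12751 RPM in cardiomyocytes, 868 in BAT cells, 2287 in mouse dendrites and 2152 in mouse somas. Of the 10 voltage-gated sodium channel genes 8 were listed in mouse dendrites, 6 in somas, 7 in BAT cells, 4 in cardiomyocytes and 3 in each rat list. The leading sodium channel was Scn2a1 in mouse dendrites (385 reads), Scn8a in mouse somas (1034 reads), BAT cells (21131 reads) and rat somas (966 reads), and Scn7a in rat dendrites (41 reads).

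For Cacna1c, 854 genes were in all 6 lists, and likeness was measured by the Euclidean distance of log2(RPM + 1) over the 6 lists. The 3 nearest genes were Pdcd2 at a distance of 3.82, Strbp at 4.28 and Nav2 at 4.62.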

How the data were processed

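Per the labels, 26 libraries from 3 rounds of aRNA amplification form 6 conditions. The authors trimmed adapters, poly-A and poly-T from paired reads of 50 nt. They aligned the reads with RUM (builds mm9 and rn4 in the submitters' processing notes). Uniquely mapped intronic reads at most 500 nt apart were joined into contigs. Introns with predicted genes, known poly(A) sites or known RNAs were removed, and 1 pooled list per condition was deposited with raw read counts per intron. A count was used once per transcript and intron, whole where at least 1 contig passed a length limit. Counts were divided by the sum over the list, or over its kept introns under a limit. Libraries were not strand-specific. Annotation was NCBIM37, in which 97.8% of 13156 mouse transcripts had every contig in the intron of the same number. The text names all members, their leading intron per list, introns in 2 or more mouse lists and those with the same number in mouse and rat, and the leading gene of the auxiliary subunit and sodium channel lists, of which 1 is not reported here. Cell type markers are given as sums. The members and lists were chosen with earlier results of these data known. With 1 list per condition no test was run. Intervals (95%) used scipy 1.17.1 and statsmodels 0.14.6 in Python 3.11.15 with pandas 2.3.3, and were tested on simulated data. PCR reads are not independent molecules, so they cover counting error only. Alternatives changed the length limit, the minimum reads, the denominator and the leading intron.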

Additional observations from a re-analysis of the deposited data

How the results depend on the processing

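Of 131 recomputed values 58 moved by less than their counting interval or the set tolerance, 67 moved further and 6 changed direction; the cause was not tested. The 6 values were ratios of the summed level with contigs of at most 400 nt, an alternative chosen after seeing the data. With the limit in whole-cell lists they were 3.63 (mouse dendrites over somas), 1.39 (rat dendrites over somas) and 0.490 (mouse somas over cardiomyocytes), and with it in all lists 1.34, 1.10 and 0.490. Under both, somas over BAT cells gave 3.93 and BAT cells over cardiomyocytes 0.125. Taken over the reads of the kept introns, the limit left 492 RPM in mouse somas, 125 in BAT cells, 1005 in cardiomyocytes and 137 in rat somas. It left 10 introns in mouse somas, 7 in cardiomyocytes and 9 in rat somas. Of the 430 annotated introns of all 10 genes, it left 2.33% in mouse somas (3.95% with all contigs) and 3.49% in BAT cells (5.35%). Without the leading intron the levels were 910 in mouse dendrites, 1567 in mouse somas, 109 in BAT cells, 978 in cardiomyocytes, 100.3 in rat dendrites and 2437 in rat somas, and the 5 ratios were 0.580, 0.0411, 14.4, 1.60 and 0.112. Relative to the median ratio of genes in both lists they were 0.292, 0.0333, 27.0, 1.46 and 0.0473. With the sequenced reads of the libraries as the denominator the neuronal ratios were 0.489 and 0.0406. With at least 16 reads per intron, 8 introns were left in mouse somas, 13 in BAT cells, 3 in rat dendrites and 10 in rat somas, and 3 members in rat dendrites. These were 1.86% of the 430 annotated introns in mouse somas and 3.02% in BAT cells. The median contig was 467 nt in rat dendrites and 685 nt in rat somas. With at least 32 reads, 2 members were left in rat dendrites. No paired analysis was possible because each condition is 1 pooled list, and for the same reason no library could be left out. Members with 2 reads are at the limit of this depth.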
